A study of Mus musculus with 12 samples.

Results

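The genes described here were 38 mouse genes known to be imprinted, taken from a list of symbols and matched to the Ensembl gene IDs of the count files. Each of the 38 matched 1 of the 55335 gene rows of the files. Of the 38, 36 passed the filter on low counts that left 16597 genes for testing. The other two were Igf2, the fetal insulin-like growth factor, with at most 19 counts in any library, and Rtl1, a retrotransposon-derived gene, with at most 5 counts. Of the 36 tested genes, 10 are known to be expressed from the maternal copy, 18 from the paternal copy, and 8 from a copy or copies that depend on the tissue. The counts did not separate the parental copies, so no value given here shows which copy was transcribed.

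Imprinted genes are transcribed mainly from the chromosome of a single parent, because DNA methylation laid down in the egg or the sperm marks control regions that are then kept through development. Most lie in clusters in which a methylated control region, long noncoding RNAs and several protein genes are regulated together. Many act on growth and metabolism in the fetus and placenta, among them inhibitors and promoters of cell division, and several are switched down in most tissues after birth.

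The data were RNA-seq libraries of cultured fibro-adipogenic progenitors from mouse limb muscle. These progenitors (FAPs) are stromal cells of the space between muscle fibres, and were sorted as Lin- Vcam- Sca1+ cells before culture. There were 4 groups of 3 libraries. WT cells had been given ethanol. In Bap1KO cells, 1 µM 4-hydroxytamoxifen (4-OHT) had been used for deletion of Bap1, whose product removes ubiquitin from histone H2A. Smn1OE cells had received 4-OHT and also a human SMN construct. SMN is needed to build the snRNPs of the spliceosome. Smn1OE_K186R cells had received 4-OHT together with a construct of SMN that carries K186R. The treatment text names Rosa-CreER as the driver of the deletion, whereas the source label names Prrx1Cre with floxed Bap1 alleles. By the labels, no group combined 4-OHT with intact Bap1, and none carried an empty vector. So 4-OHT and loss of Bap1 cannot be told apart, nor can SMN and the vector. WT and Bap1KO shared culture media batches A to C (replicates 1 to 3), and both SMN groups shared batches D to F, so batch and SMN cannot be told apart either. The labels do not say whether replicates came from separate animals, so p-values measure the spread between these samples, which may be technical.

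Library totals lay between 51.2 and 68.2 M counts. Levels are given in CPM, the counts of a gene per 1 M normalised counts. Bap1 fell by 0.32 on the log2 scale in Bap1KO (adjusted p = 0.0139), from 50.5 ± 1.32 to 40.3 ± 1.74 CPM (mean ± SD, n = 3), and the labels do not say which exons were removed. Counts at Smn1 were 33.6 ± 1.71 CPM in WT and 4757 ± 907 CPM in Smn1OE, with 3940 ± 363 CPM in Smn1OE_K186R. All 12 FAP markers, such as Pdgfra, Ly6a (Sca1) and Col1a1, passed the filter, but their summed level was 15063 to 21928 CPM in WT, 9429 to 17085 CPM in Bap1KO, 3607 to 5658 CPM in Smn1OE and 4340 to 6115 CPM in Smn1OE_K186R. Of 12 myogenic markers, Myf5 had no count in any library and Pax7 and Myod1 had at most 1, while Acta1 averaged 130 CPM in WT and 469 CPM in Smn1OE. The 12 summed to 107 to 155 CPM in WT, 144 to 341 CPM in Bap1KO, 339 to 597 CPM in Smn1OE and 267 to 554 CPM in Smn1OE_K186R, nearly all of it Acta1. Des, the other marker above 1 CPM, went the other way, from 3.89 CPM in WT to 1.94, 1.76 and 1.58 CPM in those groups, and the other 10 stayed under 1 CPM on average. A list of 6 proliferation genes summed to 382 to 557 CPM in WT, 256 to 415 CPM in Bap1KO, 153 to 244 CPM in Smn1OE and 158 to 262 CPM in Smn1OE_K186R. Xist, the RNA of the inactive X chromosome, lay at 197 to 305 CPM in WT and Bap1KO and at no more than 0.113 CPM in the SMN groups, and the Y-linked Eif2s3y had 0 counts in the first and 57.9 to 69.7 CPM in the second. By these RNAs the SMN cells were male and the WT and Bap1KO cells female, so SMN and sex of the cells cannot be told apart. Summed FAP marker level, proliferation genes, sex of the cells and media batch thus all differed between the SMN groups and the others. Their part in the differences of imprinted genes was not tested.

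Promoter sequence was available for 30 of the 38 genes, as 51 RefSeq windows (build GRCm38.p6) that run from 250 bases before to 50 after a start site. The hexamer TGCCGC, which the zinc finger protein ZFP57 binds when methylated at imprinted control regions, was found on either strand in 11 of the 51 windows (21.6%) and in 11.6% of all 32851 windows. The median window of a listed gene held 14 CpG dinucleotides, against 7 over all windows. The hexamer itself holds a CpG, and whether its share differed at equal CpG content was not tested. Windows of the same gene can overlap, as at Mest (starts chr6:30737800 and chr6:30737803), so the 51 are not independent. The letters GCCATNTT, a form of the YY1 motif, were found in none of the 51 windows and in 6.05% of all. CCAAT, the core of the CCAAT box, was in 25.5% of the 51 windows and 37.4% of all. CCAAT was added to the search after the sequences had been read, and a match is a description and not a bound site. Stretches of 4 promoters that lie outside annotated exons are shown, for the genes of the Peg3 domain, which were lowest in Bap1KO, and for Zdbf2 and Magel2, which were highest in the SMN groups. Peg3 and Usp29 start in opposite directions from the shared stretch at chr7:6730432-6730577 (plus strand), whose capitals mark its 2 CCAAT matches. Zim1 starts in the same domain, at chr7:6696451-6696682 (minus strand). The only hexamer match in the Zim1 window lies outside this stretch. The first of the Zdbf2 windows, at chr1:63200108-63200312 (plus strand), has 3 matches to the ZFP57 hexamer or its complement in capitals, the most in any of the 51 windows. The other Zdbf2 window, at chr1:63273019-63273318, has no match, and which start was used in these cells was not tested. The Magel2 stretch, at chr7:62376729-62376978 (plus strand), has no match to any of the motifs.
Peg3-Usp29: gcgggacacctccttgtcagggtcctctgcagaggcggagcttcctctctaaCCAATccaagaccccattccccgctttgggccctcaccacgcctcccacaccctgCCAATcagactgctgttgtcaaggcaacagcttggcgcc
Zim1: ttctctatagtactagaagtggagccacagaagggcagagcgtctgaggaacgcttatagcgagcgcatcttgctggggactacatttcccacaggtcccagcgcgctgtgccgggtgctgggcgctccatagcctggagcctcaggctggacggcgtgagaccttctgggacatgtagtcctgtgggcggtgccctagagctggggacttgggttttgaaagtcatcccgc
Zdbf2: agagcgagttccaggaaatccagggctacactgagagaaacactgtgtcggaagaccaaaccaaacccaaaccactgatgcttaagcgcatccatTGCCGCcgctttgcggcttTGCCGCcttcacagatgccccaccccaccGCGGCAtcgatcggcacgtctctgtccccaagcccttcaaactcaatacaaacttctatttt
Magel2: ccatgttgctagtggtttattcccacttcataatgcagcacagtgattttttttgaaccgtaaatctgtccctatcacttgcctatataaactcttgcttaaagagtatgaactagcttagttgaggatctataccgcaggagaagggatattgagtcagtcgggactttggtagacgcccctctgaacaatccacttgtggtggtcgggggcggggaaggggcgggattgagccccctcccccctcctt

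Levels of the imprinted genes ranged over more than 4 orders of magnitude when divided by exon length (CPM per kilobase of exon). In WT, 10 of the 36 tested genes averaged above 10 CPM per kilobase and 11 averaged below 1. Cd81, a tetraspanin of the cell surface, was at 195 ± 4.99 CPM per kilobase in WT, and Gnas, the locus of the stimulatory G protein alpha subunit, was at 135 ± 0.693 (SD, n = 3). Below them came Dio3, the deiodinase that inactivates thyroid hormone (66.2 ± 24.2 CPM per kilobase), and the maternal noncoding RNA H19 (53.6 ± 37.6), whose WT ranges overlapped. Ndn, which encodes the growth suppressor necdin, was at 36.5 ± 3.17 CPM per kilobase, within the spread of H19. The adaptor Grb10, the receptor Igf2r and the noncoding RNAs Meg3 and Rian, together with Impact, a regulator of translation, averaged between 21.2 and 27.7 CPM per kilobase in WT, where neighbours in the order Grb10, Igf2r, Meg3, Impact and Rian overlapped. At the lower end of the tested genes stood Usp29 (0.0319 ± 0.00967), Ppp1r9a (0.0147 ± 0.00814), Zdbf2 (0.00924 ± 0.00662) and Magel2 (0.00219 ± 0.0019), so the values of these rest on few reads, at most 51 counts in any WT library. Divisions by exon length used the GENCODE M21 gene models, an annotation of the build before that of the files.

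**Figure D1:**
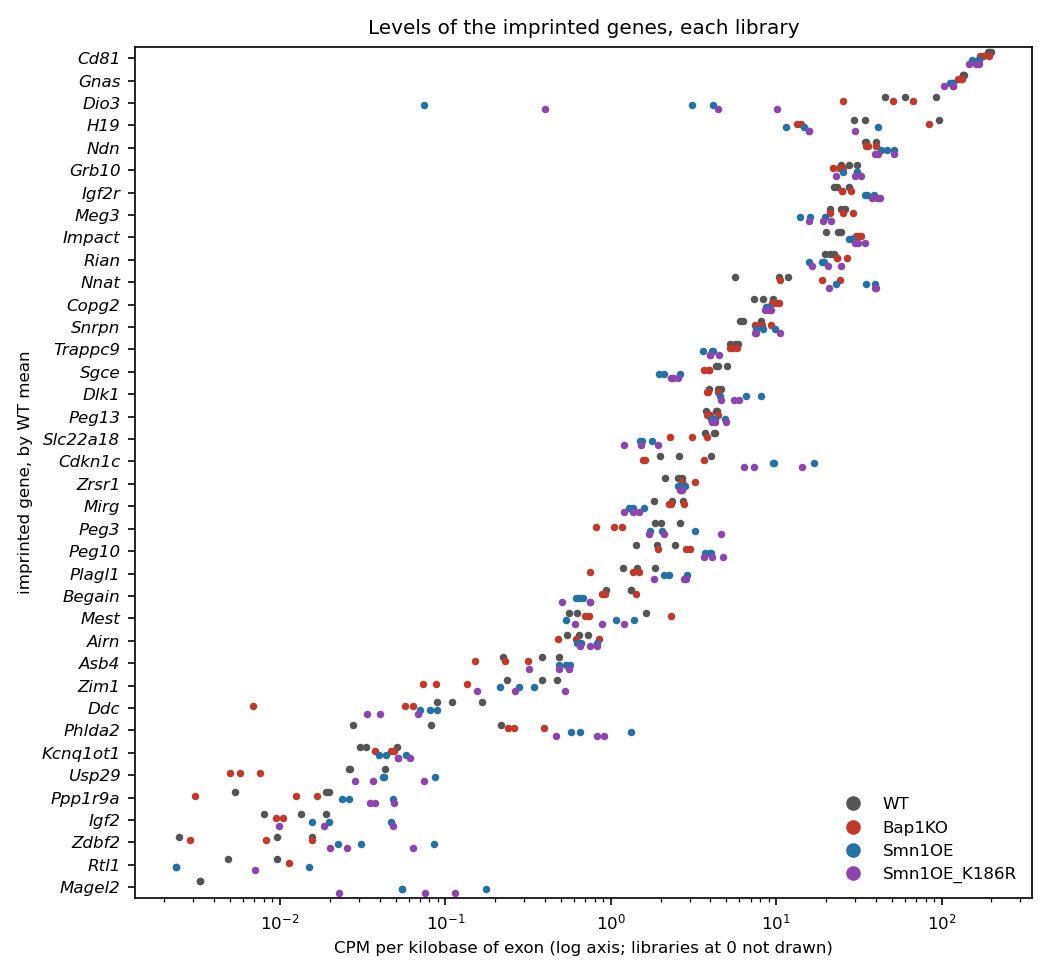
Level of each of the 38 imprinted genes in each of the 12 libraries, in CPM per kilobase of exon on a log axis, ordered by the WT mean. Points are single libraries coloured by group, and libraries with 0 counts are not drawn. Cd81 and Gnas are at the top in every group, Dio3 is far lower in the SMN libraries than in WT and Bap1KO, and Magel2 has points in WT near the bottom of the axis and none in Bap1KO.

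Between Bap1KO and WT, the largest called differences among imprinted genes, in Usp29 and Zim1, lay in the Peg3 domain of chromosome 7, whose 3 listed genes were lower in every Bap1KO library than in every WT library. This domain holds the paternally expressed Peg3, a zinc finger protein gene, and Usp29, a gene of the ubiquitin-specific protease family, and the maternally expressed zinc finger gene Zim1. Usp29 was at 0.471, 0.778 and 0.48 CPM in WT replicates 1 to 3 and at 0.104, 0.137 and 0.0907 CPM in Bap1KO replicates 1 to 3. The groups did not overlap. Usp29 fell by 2.35 on the log2 scale (SE 0.50, adjusted p = 0.0136, edgeR quasi-likelihood test with Benjamini-Hochberg adjustment), a call that did not hold without Bap1KO replicate 3 (adjusted p = 0.0632). Zim1 was at 1.9, 3.85 and 3.11 CPM in WT and at 0.596, 1.1 and 0.708 CPM in Bap1KO, again without overlap. It fell by 1.88 (SE 0.44, adjusted p = 0.021), and this call needed Bap1KO replicates 1 and 3 and WT replicates 2 and 3 (adjusted p of up to 0.0855 without one of them). Peg3 was at 26.9, 35.1 and 24.5 CPM in WT and at 13.9, 15.6 and 10.9 CPM in Bap1KO, so every Bap1KO library lay below every WT library. Its difference of -1.10 on the log2 scale (SE 0.34) missed the threshold in the fit of the 4 groups (adjusted p = 0.0629). It passed in a fit of WT and Bap1KO alone (-1.08, adjusted p = 0.0126), in a fit with no filter on low counts (adjusted p = 0.000344) and with the media batch as a block on these 2 groups (-1.08, adjusted p = 3.33e-05). In limma with the batch as a random effect it passed too (adjusted p = 0.00595). Peg3 missed in DESeq2 and with upper-quartile factors (adjusted p = 0.0583 in each). It also missed in the fit of the 4 groups whichever single WT or Bap1KO library was left out (0.0893 to 0.201). Without a stated strand setting, 14.3% of the Usp29 exon length overlaps exons on the other strand, mostly of Zim3, and reads there cannot be told apart.

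**Figure D2:**
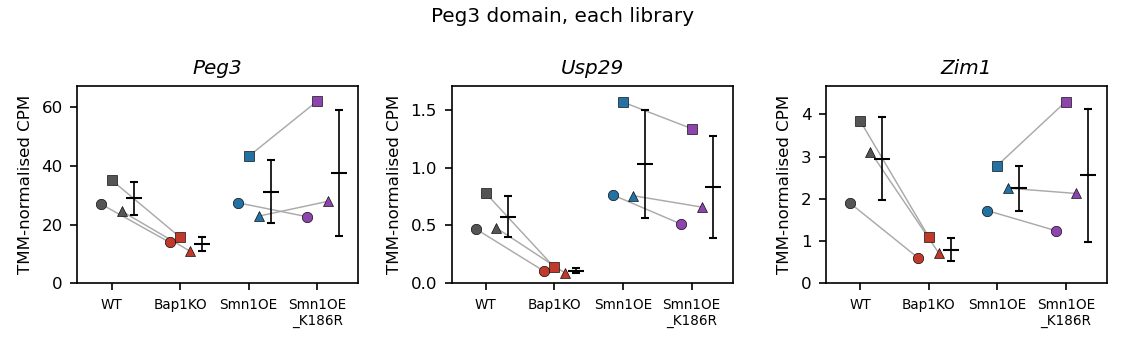
TMM-normalised CPM of Peg3, Usp29 and Zim1 in each library, by group, with linear axes. Circles, squares and triangles are replicates 1, 2 and 3, grey lines join libraries of the same media batch, and horizontal marks with bars are the mean and SD of 3 libraries. In each of the 3 genes, the Bap1KO libraries lie below all libraries of the other groups.

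Impact, which limits activation of the stress kinase GCN2, rose in Bap1KO. It was at 103, 121 and 127 CPM in WT and at 155, 160 and 168 CPM in Bap1KO. No Bap1KO library lay within the WT range, and Impact rose by 0.46 (SE 0.09, adjusted p = 0.00752). The call held with each single library left out, with an adjusted p of at most 0.0415. In all, 3 of the 36 tested imprinted genes passed in this comparison (1 higher, 2 lower), which is 8.33%. Of all genes tested 9.72% passed, 3.36% higher and 6.37% lower, so the imprinted genes passed at a share near the background. Their median log2 fold change was -0.04, or -0.03 without Magel2, which has too few counts for a fold change here, against 0.00 over all genes. Without Bap1KO replicate 3 the count was 1 of 37, Impact, and 535 of 17102 passed over all genes.

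With the media batch as a block, 13 of 34 tested imprinted genes passed, 6 higher and 7 lower, while 33.9% of all genes passed (15.4% higher and 18.5% lower), so the share was again near the background. Besides the genes above, those that passed with the block and not in the fit of the 4 groups were H19, Rian, Dio3, Peg10, Sgce, Copg2, Grb10, Nnat and Snrpn. Nnat, which encodes neuronatin, a small membrane protein of the endoplasmic reticulum, was at 10.4, 21.6 and 19.1 CPM in WT and at 19.4, 44.3 and 34.7 CPM in Bap1KO. Ranges overlapped slightly, but Bap1KO was higher in every batch, by 0.95 on the log2 scale (adjusted p = 0.11 in the fit of the 4 groups and 3.81e-05 with the block). Without the block, it was called on leaving out Bap1KO replicate 1 (adjusted p = 0.0439) and with no filter on low counts (0.00167).

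The Dio3 and H19 values differed more between batches than between these groups. Dio3 was at 122, 92.8 and 189 CPM in WT and at 103, 51.2 and 137 CPM in Bap1KO, lower in each batch although the ranges overlapped. Its log2 fold change was -0.47 (adjusted p = 0.781), or -0.50 with the block (adjusted p = 0.00449). H19, the noncoding RNA that is a source of a microRNA restraining growth, was at 238, 84.9 and 72.5 CPM in WT and at 208, 34.7 and 32.7 CPM in Bap1KO. Both batch A libraries lay far above the others, and within each batch Bap1KO was lower. The log2 fold change was -0.52 (adjusted p = 0.695), or -0.85 with the block (adjusted p = 0.005), and without WT replicate 1 it turned to 0.22 in the unblocked fit.

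The other blocked calls were small. Rian, a maternal noncoding RNA that hosts small nucleolar RNAs, was at 361, 389 and 410 CPM in WT and at 424, 425 and 487 CPM in Bap1KO, higher without overlap (0.22 with the block, adjusted p = 0.0122). Peg10, a retrotransposon-derived gene needed in the placenta, was at 9.51, 12.8 and 16.4 CPM in WT and at 12.9, 19 and 20.1 CPM in Bap1KO (0.45 with the block, adjusted p = 0.00351). Its neighbour Sgce, which encodes epsilon-sarcoglycan, went the other way, from 46, 47 and 53.9 CPM in WT to 42, 38.7 and 41.6 CPM in Bap1KO (-0.25 with the block, adjusted p = 0.0128). Peg10 ranges overlapped between groups and Sgce ranges did not, and in each batch Peg10 was higher and Sgce lower in Bap1KO. Grb10, an adaptor that damps insulin receptor signals, was at 278, 224 and 252 CPM in WT and at 229, 199 and 218 CPM in Bap1KO (-0.20 with the block, adjusted p = 0.0157). Copg2, a coatomer subunit, was at 37.8, 42.7 and 48.7 CPM in WT and at 50.7, 48.4 and 53.5 CPM in Bap1KO (0.26 with the block, adjusted p = 0.0131). Snrpn, which encodes the SmN spliceosomal protein, was at 13, 17.4 and 13.5 CPM in WT and at 16.2, 20.2 and 17.8 CPM in Bap1KO (0.32 with the block, adjusted p = 0.0117). Ranges of these last genes overlapped, and within batches Grb10 was lower and Copg2 and Snrpn were higher in Bap1KO each time. None of these passed in the fit of the 4 groups, where adjusted p ran from 0.105 to 0.355, except that Copg2 did without WT replicate 3 (0.0358). Exons of Copg2 and Mest overlap on opposite strands over 17.8% of Copg2, and exons of Snrpn overlap other genes of the same strand over 27.3%, so their counts carry that uncertainty. Counting direction alone, 11 of the 36 were higher and 13 were lower in Bap1KO in all 3 batches, against 28.2% and 30.7% of all genes tested.

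**Figure D3:**
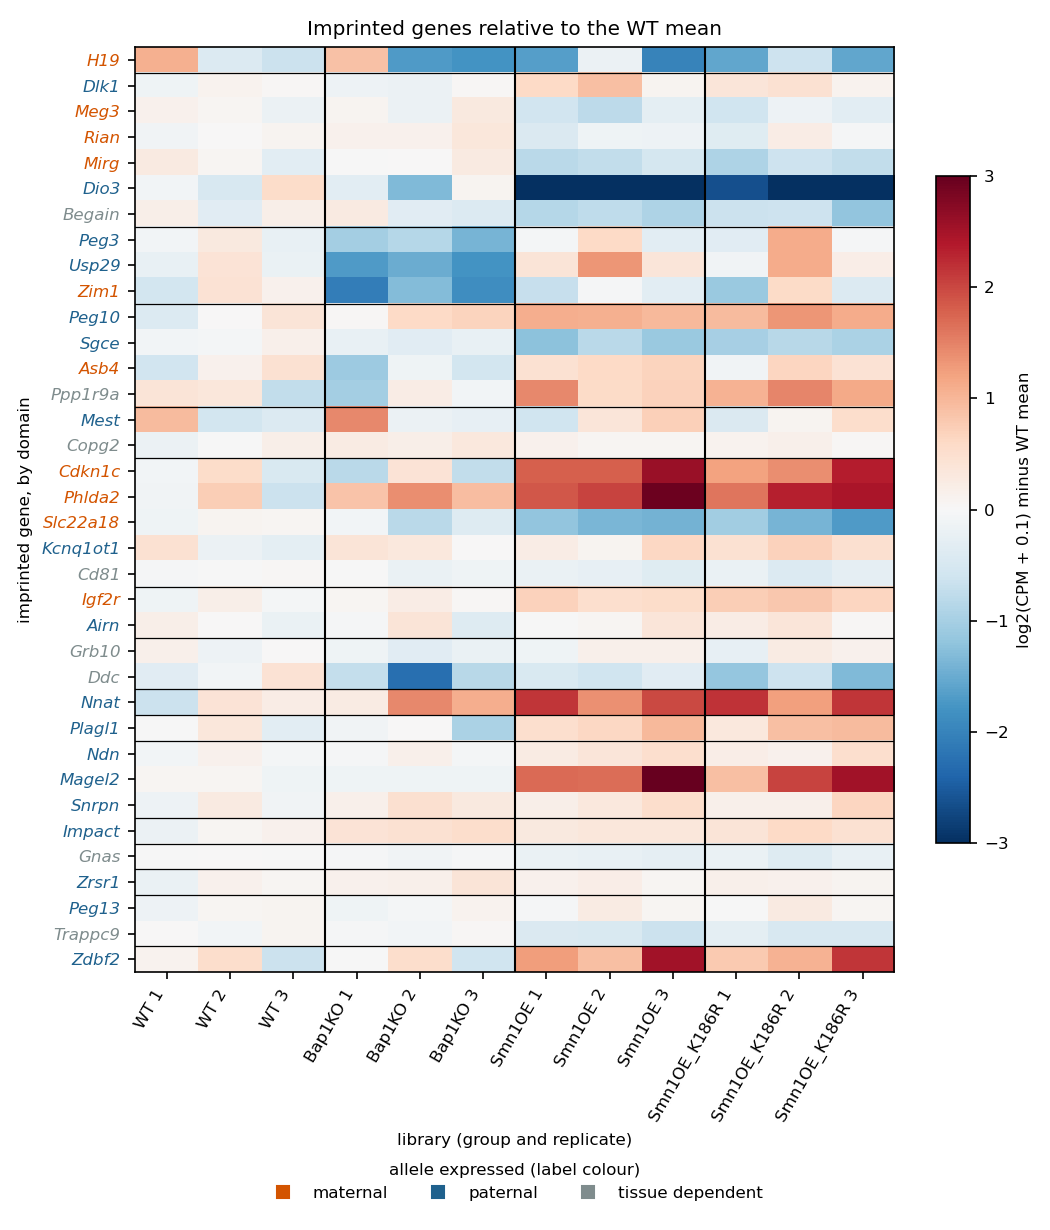
Level of the 36 tested imprinted genes in each library, as log2(CPM + 0.1) minus the WT mean on the same scale, with genes ordered by domain and domains separated by lines. Red is above and blue below the WT mean, gene names are coloured by the parental copy known to be expressed, and the colour scale stops at 3 in each direction. Peg3, Usp29 and Zim1 are blue in the Bap1KO columns, and the SMN columns are red for Cdkn1c, Phlda2, Nnat, Magel2 and Zdbf2 and blue for Dio3, Sgce and Slc22a18.

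The libraries with an SMN vector were compared with Bap1KO, which shares their 4-OHT treatment but not their media batches or sex of the cells. Bap1 RNA itself was higher in Smn1OE than in Bap1KO, at 49.1 against 40.3 CPM on average, without overlap (0.28, adjusted p = 0.00924, edgeR). In Smn1OE_K186R it averaged 45.3 CPM, overlapped Bap1KO and was not called (0.17, adjusted p = 0.081). Whether the differences in imprinted genes went with that in Bap1 RNA was not tested. The calls covered many of all genes. In Smn1OE 33.5% of all genes tested passed (15.8% higher and 17.7% lower), and 21 of the 36 imprinted genes did (58.3%), 13 higher and 8 lower. In Smn1OE_K186R 32.6% of all genes passed (16.1% higher and 16.5% lower), and 17 imprinted genes did (47.2%), 10 higher and 7 lower. Both shares lay above the background, but the genes had been chosen with results known and no test was made of the list. The median log2 fold change of the 36 was 0.12 in Smn1OE and 0.19 in Smn1OE_K186R, against -0.01 over all genes in each, and both medians were the same with Magel2 set at its lower bound. By parental copy, 9 of 10 maternally expressed genes passed in Smn1OE (5 higher, 4 lower), with 10 of 18 paternally expressed (8 higher, 2 lower) and 2 of 8 tissue-dependent genes (both lower). In Smn1OE_K186R the numbers were 6 of 10 (4 higher, 2 lower), 7 of 18 (5 higher, 2 lower) and 4 of 8 (1 higher, 3 lower). These comparisons share the Bap1KO libraries. The counts fell to 13 of 37 in Smn1OE without Bap1KO replicate 3, where 4038 of 17102 passed over all genes. In Smn1OE_K186R they fell to 11 of 37 without Bap1KO replicate 1, where 3385 of 17056 passed over all genes. As these are bulk samples, fewer cells of a type and less RNA per cell cannot be told apart in any of these values.

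**Figure D4:**
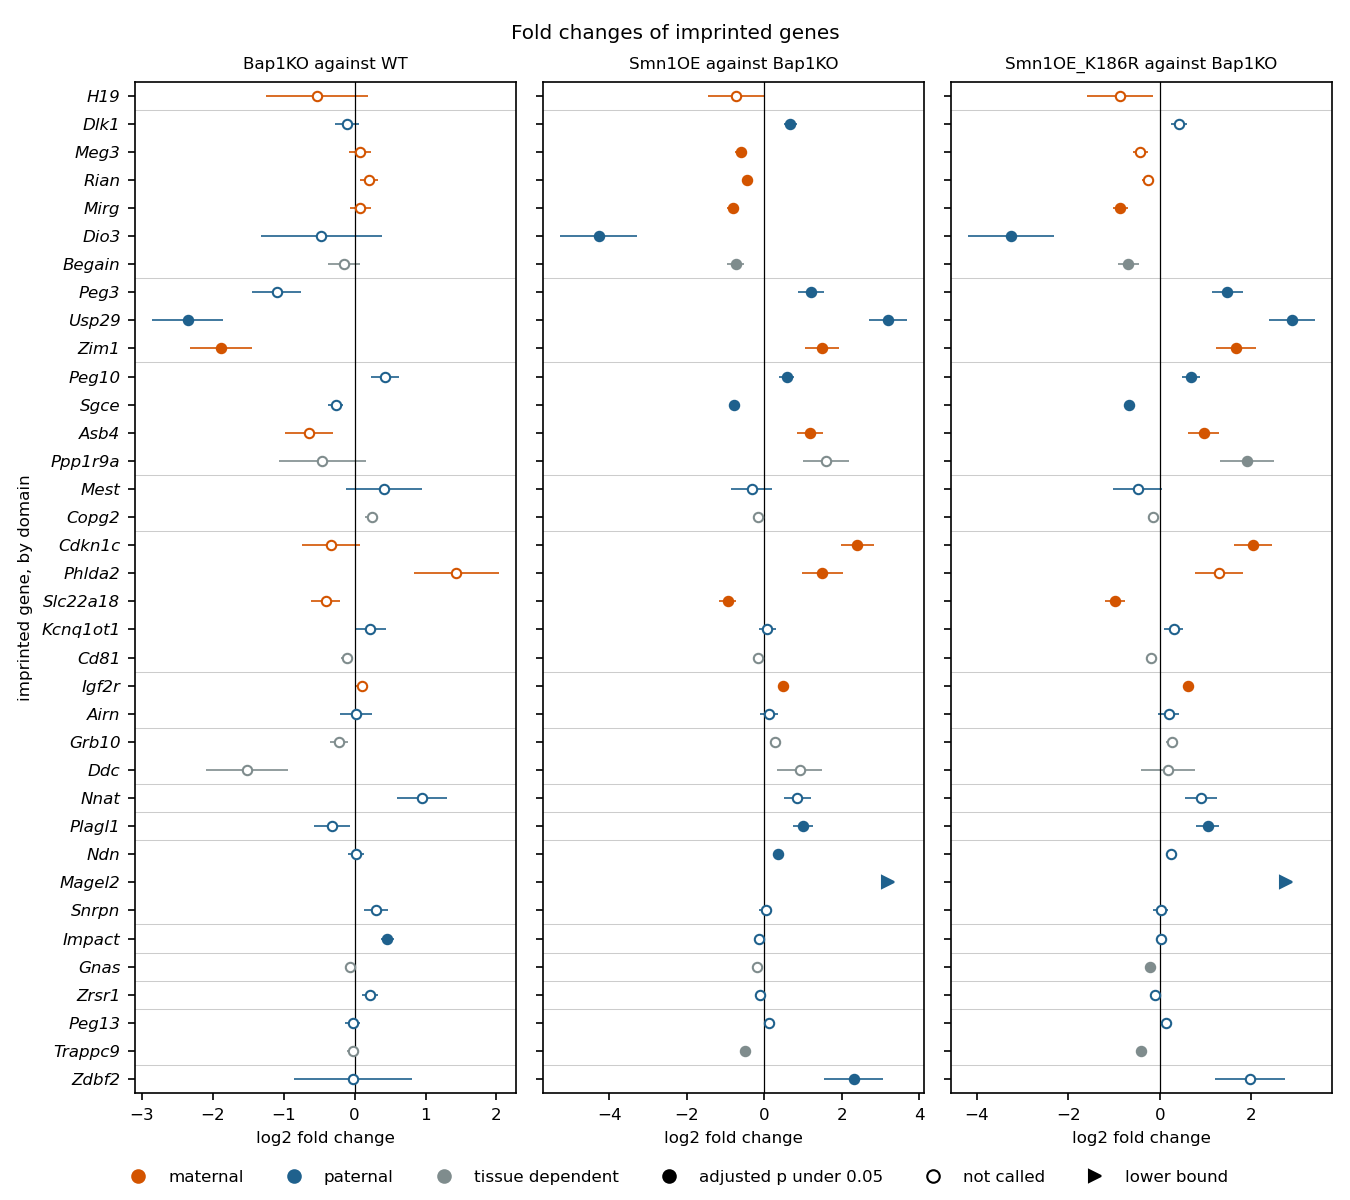
Log2 fold changes of the 36 tested imprinted genes with their standard errors, in Bap1KO against WT and in each SMN group against Bap1KO, with a separate axis range for each panel. Filled points passed at an adjusted p under 0.05, colours give the parental copy known to be expressed, and triangles give the lower bound for Magel2, which had no counts in Bap1KO and is not drawn in the first panel. The genes of the Peg3 domain lie left of 0 in the first panel and right of it in the others, and Dio3 lies farthest to the left in the SMN panels.

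The genes of the Peg3 domain were higher in both SMN groups than in Bap1KO, at levels that overlapped those of WT. Usp29 was at 0.764, 1.57 and 0.757 CPM in Smn1OE replicates 1 to 3 and at 0.511, 1.34 and 0.659 CPM in Smn1OE_K186R replicates 1 to 3. All 6 lay above every Bap1KO library, by 3.19 (SE 0.49, adjusted p = 0.000987) and 2.89 (SE 0.49, adjusted p = 0.00182) on the log2 scale. Peg3 was at 27.4, 43.2 and 22.9 CPM in Smn1OE and at 22.7, 62 and 27.9 CPM in Smn1OE_K186R. Replicate 2, of media batch E, was the highest of each group. Peg3 rose by 1.21 (SE 0.34, adjusted p = 0.0187) and 1.48 (SE 0.34, adjusted p = 0.00781). Zim1 was at 1.72, 2.79 and 2.25 CPM in Smn1OE and at 1.25, 4.3 and 2.13 CPM in Smn1OE_K186R, and replicate 2 was again highest. Zim1 rose by 1.49 (SE 0.44, adjusted p = 0.0215) and 1.68 (SE 0.44, adjusted p = 0.0129). The Peg3 call in Smn1OE was lost without Bap1KO replicate 3 or Smn1OE replicate 2 (up to 0.0734). The Zim1 call in Smn1OE needed replicates 1 and 3 of Bap1KO and 2 and 3 of Smn1OE (up to 0.0786 without one of them). It was lost in Smn1OE_K186R without Bap1KO replicate 1 or Smn1OE_K186R replicate 2 (up to 0.0598). Against WT none of the 3 genes passed in either SMN group, with log2 fold changes of -0.39 (Zim1) to 0.84 (Usp29) in Smn1OE and -0.20 (Zim1) to 0.54 (Usp29) in Smn1OE_K186R.

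In the Dlk1-Dio3 domain of chromosome 12, the thyroid hormone deiodinase gene Dio3 fell most, and its neighbours moved less. Dio3 was at 8.44, 6.31 and 0.151 CPM in Smn1OE and at 20.6, 9.09 and 0.81 CPM in Smn1OE_K186R, against 51.2 to 137 CPM in Bap1KO. The groups did not overlap, and replicate 3, of media batch F, was lowest in each SMN group. Dio3 fell by 4.27 (SE 1.00, adjusted p = 0.00729) in Smn1OE, and it fell by 3.25 (SE 0.94, adjusted p = 0.0209) in Smn1OE_K186R, where the call was lost without Bap1KO replicate 3 or Smn1OE_K186R replicate 2 (up to 0.0635). The maternal noncoding RNAs of the domain fell in Smn1OE: Meg3 by 0.61 (adjusted p = 0.0119), Rian by 0.43 (adjusted p = 0.0246) and the microRNA host Mirg by 0.79 (adjusted p = 0.00291). In Smn1OE_K186R Mirg fell by 0.86 (adjusted p = 0.00227), while Meg3 and Rian differed by -0.42 and -0.25 (adjusted p 0.056 and 0.159). Begain, known from synapses, fell by 0.74 and 0.68 (adjusted p 0.0283 and 0.0383). Dlk1, a transmembrane ligand that inhibits fat cell formation, rose by 0.67 in Smn1OE (adjusted p = 0.0109) and differed by 0.42 in Smn1OE_K186R (adjusted p = 0.0779). Meg3 lost its call without Bap1KO replicate 3 (0.0517) and Rian without that library or Smn1OE replicate 1 (up to 0.0957). Begain lost its calls without Bap1KO replicate 1 or without replicate 1 or 3 of the SMN group (up to 0.133 and 0.172).

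In the Kcnq1 domain of chromosome 7, Cdkn1c rose most and Slc22a18 fell. Cdkn1c, the maternally expressed cyclin-dependent kinase inhibitor p57, was at 3.17, 7.43 and 3.3 CPM in Bap1KO, at 19.7, 19.6 and 34.4 CPM in Smn1OE and at 13.1, 14.9 and 29.2 CPM in Smn1OE_K186R. Each SMN library lay above every Bap1KO library. Cdkn1c rose by 2.40 (SE 0.42, adjusted p = 0.00178) and 2.04 (SE 0.42, adjusted p = 0.00422), and the call held without each single library. Exons of a gene model on the other strand, Gm44732, overlap 30.7% of the Cdkn1c exons. Phlda2, which restrains placental growth, was at 0.268, 0.442 and 0.29 CPM in Bap1KO, at 0.644, 0.731 and 1.48 CPM in Smn1OE and at 0.526, 0.931 and 1.02 CPM in Smn1OE_K186R. The groups did not overlap, on at most 78 counts per library. Phlda2 rose in Smn1OE by 1.50 (SE 0.53, adjusted p = 0.0469), a call lost on leaving out any library of these groups except Bap1KO replicate 2 (up to 0.201), and differed by 1.29 in Smn1OE_K186R (adjusted p = 0.0793). Slc22a18, an organic cation transporter gene, was at 6.51, 3.89 and 5.28 CPM in Bap1KO, at 3, 2.63 and 2.54 CPM in Smn1OE and at 3.29, 2.59 and 2.05 CPM in Smn1OE_K186R. Without overlap, it fell by 0.94 (SE 0.21, adjusted p = 0.00618) and 0.98 (SE 0.21, adjusted p = 0.0056). Kcnq1ot1, the paternal noncoding RNA that silences this domain on its own chromosome, differed by 0.08 and 0.30 (adjusted p 0.814 and 0.306), and Cd81 by -0.16 and -0.18 (adjusted p 0.139 and 0.093).

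Around Peg10 and Sgce on chromosome 6, these neighbours with a common control region moved in opposite directions. Peg10 was at 26.9, 26.4 and 24.8 CPM in Smn1OE and at 24.3, 31.7 and 27.3 CPM in Smn1OE_K186R, all above the highest Bap1KO library. It rose by 0.59 (adjusted p = 0.0372) and 0.68 (adjusted p = 0.02). Sgce was at 20.8, 28 and 22.4 CPM in Smn1OE and at 24.4, 27.2 and 25.2 CPM in Smn1OE_K186R, all below the lowest Bap1KO library. It fell by 0.78 (SE 0.11, adjusted p = 0.00061) and 0.67 (SE 0.11, adjusted p = 0.00137). Asb4, which encodes a substrate receptor of a ubiquitin ligase, was at 0.596, 1.25 and 0.907 CPM in Bap1KO, at 1.92, 2.12 and 2.23 CPM in Smn1OE and at 1.26, 2.2 and 1.9 CPM in Smn1OE_K186R. SMN libraries lay above all Bap1KO libraries, and Asb4 rose by 1.19 (SE 0.34, adjusted p = 0.019) and 0.96 (SE 0.34, adjusted p = 0.0462). Ppp1r9a, the actin-binding neurabin, was at 0.0447, 0.244 and 0.181 CPM in Bap1KO, at 0.704, 0.343 and 0.379 CPM in Smn1OE and at 0.511, 0.712 and 0.546 CPM in Smn1OE_K186R. Again the groups did not overlap, on at most 49 counts. Ppp1r9a rose by 1.91 in Smn1OE_K186R (SE 0.59, adjusted p = 0.0267) and differed by 1.60 in Smn1OE (SE 0.59, adjusted p = 0.0537). Except for Sgce, the calls of these genes depended on single libraries. In Smn1OE the Peg10 call needed Bap1KO replicate 1 and each Smn1OE replicate (up to 0.135), and the one in Smn1OE_K186R was lost without Bap1KO replicate 1 or Smn1OE_K186R replicate 2 (up to 0.0776). The Asb4 call needed replicates 1 and 3 of Bap1KO and replicate 3 of Smn1OE (up to 0.0745), and in Smn1OE_K186R those 2 Bap1KO libraries and its own replicates 2 and 3 (up to 0.164). For Ppp1r9a the call needed Bap1KO replicates 1 and 3 and Smn1OE_K186R replicate 2 (up to 0.0849).

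Among paternally expressed genes elsewhere, Magel2, Zdbf2 and Plagl1 were higher with an SMN vector. Magel2, a MAGE family gene next to Ndn in the domain of the Prader-Willi syndrome, had 0 counts in the 3 Bap1KO libraries and 1, 1 and 0 counts in WT. It had 17, 17 and 43 counts in Smn1OE and 7, 24 and 28 counts in Smn1OE_K186R. Against a floor of 3 counts per library in Bap1KO, Magel2 was at least 9.13-fold higher in Smn1OE (adjusted p = 0.00242) and at least 6.77-fold higher in Smn1OE_K186R (adjusted p = 0.00383). Ndn itself rose by 0.35 in Smn1OE (adjusted p = 0.0302, up to 0.124 without replicate 1 or 3 of Bap1KO or 2 or 3 of Smn1OE), and differed by 0.26 in Smn1OE_K186R (adjusted p = 0.0937). Zdbf2, a zinc finger gene named for its DBF domain, was at 0.104, 0.198 and 0.0363 CPM in Bap1KO, at 0.39, 0.283 and 1.08 CPM in Smn1OE and at 0.256, 0.32 and 0.81 CPM in Smn1OE_K186R. No SMN library lay in the Bap1KO range, and replicate 3 was highest in each SMN group. Zdbf2 rose by 2.31 in Smn1OE (SE 0.76, adjusted p = 0.0353, up to 0.173 without replicate 1 or 3 of Bap1KO or 3 of Smn1OE), and differed by 1.97 in Smn1OE_K186R (SE 0.76, adjusted p = 0.0655). Plagl1, a zinc finger transcription factor of growth control, was at 10.6, 11.6 and 5.88 CPM in Bap1KO, at 16.4, 17.7 and 22.5 CPM in Smn1OE and at 14.3, 21.6 and 22.3 CPM in Smn1OE_K186R. It rose without overlap by 1.00 (SE 0.26, adjusted p = 0.0114) and 1.05 (SE 0.26, adjusted p = 0.00983). Nnat was at 72.2, 42 and 64.1 CPM in Smn1OE and at 73.6, 38.1 and 72.3 CPM in Smn1OE_K186R. In each SMN group replicate 2 lay below the highest Bap1KO library, and the log2 fold changes of 0.86 and 0.90 did not pass (adjusted p 0.0753 and 0.0649).

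Smaller differences from Bap1KO were called for Igf2r, Trappc9 and Gnas. Igf2r, the maternally expressed receptor that clears IGF2, rose by 0.47 (SE 0.09, adjusted p = 0.0031) and 0.63 (SE 0.09, adjusted p = 0.000954), from 234 to 264 CPM in Bap1KO to 323 to 364 CPM in Smn1OE and 354 to 398 CPM in Smn1OE_K186R. Airn, the paternal noncoding RNA that silences Igf2r on its own chromosome, differed by 0.13 and 0.20 (adjusted p 0.694 and 0.53). Trappc9, a subunit of a vesicle tethering complex, fell by 0.48 (adjusted p = 0.00157) and 0.40 (adjusted p = 0.00444), while Peg13, the noncoding RNA within it, differed by 0.12 and 0.14 (adjusted p 0.447 and 0.364). Gnas fell by 0.21 in Smn1OE_K186R (adjusted p = 0.0398) and differed by -0.18 in Smn1OE (adjusted p = 0.0753). Exons on the other strand, of Nespas and Gm20721, overlap 22% of the Gnas exons. For Gnas the call needed Bap1KO replicates 1 and 3 and Smn1OE_K186R replicate 2 (up to 0.107 without one of them).

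Against WT, the SMN groups differ in SMN vector, 4-OHT, media batch and sex of the cells at once. The 4-OHT was used for deletion of Bap1, but Bap1 RNA was not called different from WT in either SMN group. In Smn1OE its range overlapped that of WT (-0.04, adjusted p = 0.638, edgeR). In Smn1OE_K186R every library lay below every WT library (-0.16, adjusted p = 0.0767). More of all genes passed: 50.4% in Smn1OE (23.8% higher, 26.6% lower) and 50.5% in Smn1OE_K186R (24% higher, 26.5% lower). Of the 36 imprinted genes 20 passed in Smn1OE (55.6%; 11 higher, 9 lower) and 18 in Smn1OE_K186R (50%; 10 higher, 8 lower), which is near the background. Their median log2 fold changes were 0.11 and 0.16, against -0.02 over all genes in each. Paternally expressed genes among them numbered 8 higher and 2 lower in Smn1OE and 6 higher and 2 lower in Smn1OE_K186R, and maternally expressed genes 3 higher and 3 lower, and 3 higher and 2 lower. Phlda2 was at 0.0913, 0.244 and 0.031 CPM in WT, below all SMN libraries, and rose by 2.93 (SE 0.59, adjusted p = 0.0015) and 2.73 (SE 0.58, adjusted p = 0.0023). Cdkn1c was at 5.26, 8.29 and 4.02 CPM in WT and rose by 2.07 (SE 0.41, adjusted p = 0.00153) and 1.70 (SE 0.41, adjusted p = 0.0047). Nnat rose 3.49-fold (adjusted p = 0.00144) and 3.6-fold (adjusted p = 0.00124), with every SMN library above the WT range. Peg10 rose by 1.01 (adjusted p = 0.00127) and 1.11 (adjusted p = 0.000729).

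From its WT level Dio3 fell by 4.74 (SE 1.02, adjusted p = 0.00234) in Smn1OE, and it fell by 3.71 (SE 0.96, adjusted p = 0.00689) in Smn1OE_K186R. Sgce fell by 1.04 (SE 0.11, adjusted p = 2.79e-05) and 0.93 (SE 0.11, adjusted p = 5.47e-05), and Slc22a18, at 6.31, 7.29 and 7.18 CPM in WT, fell by 1.35 (SE 0.21, adjusted p = 0.000351) and 1.39 (SE 0.21, adjusted p = 0.000293). None of these genes overlapped between WT and either SMN group, and their calls against WT held without each single library. Magel2 passed as well (adjusted p 0.00191 and 0.00332). Its summed 77 counts in Smn1OE against 2 in WT gave a ratio of 40.4 (95% exact binomial interval 10.8 to 340), and its 59 counts in Smn1OE_K186R gave 30.7 (8.12 to 259), where the intervals cover counting error only. Impact, at 142 to 148 CPM in Smn1OE and 153 to 177 CPM in Smn1OE_K186R, was higher than WT by 0.32 (adjusted p = 0.00882) and 0.48 (adjusted p = 0.000724). It differed from Bap1KO by -0.15 (adjusted p = 0.208) and 0.02 (adjusted p = 0.875), so Impact was lowest in WT and the other groups lay close together, while the Peg3 domain was lowest in Bap1KO.

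Several other calls against WT rested on single libraries. Zdbf2, at 0.122, 0.198 and 0.031 CPM in WT, differed by 2.28 (SE 0.76, adjusted p = 0.0242) and 1.94 (SE 0.76, adjusted p = 0.0491). These calls were lost without replicate 3 of the SMN group or WT replicate 1 or 3 and, in Smn1OE_K186R, also without its replicate 2 (up to 0.138 and 0.213). Plagl1, at 11.3, 14.4 and 9.24 CPM in WT, differed by 0.69 and 0.73 (adjusted p 0.0391 and 0.0304), lost without WT replicate 1 or 3 or replicate 2 or 3 of the SMN group (up to 0.141 and 0.11). Smn1OE_K186R replicate 1, at 14.3 CPM, lay within the WT range of Plagl1. Ppp1r9a, at 0.289, 0.275 and 0.0774 CPM in WT, differed by 1.46 in Smn1OE_K186R (SE 0.57, adjusted p = 0.0482), lost whichever library of either group was left out (0.0613 to 0.146). The other genes called against WT in both SMN groups were Mirg, Begain and Trappc9, Cd81 and Gnas, all lower, and Igf2r, higher, with log2 fold changes of -0.89 (Begain in Smn1OE) to 0.73 (Igf2r in Smn1OE_K186R). Calls of Mirg, Begain, Trappc9 and Igf2r held in both groups without each single library (edgeR adjusted p of at most 0.0397). In Smn1OE alone Dlk1 (0.57) and Ndn (0.37) were called higher and Meg3 lower (-0.54), while the same genes differed by 0.31, 0.28 and -0.35 in Smn1OE_K186R (adjusted p 0.141, 0.0514 and 0.0805). The 3 calls in Smn1OE were lost without Smn1OE replicate 2 (Dlk1, Meg3), Smn1OE replicate 3 (Ndn) or WT replicate 1 (Dlk1, Ndn), up to 0.0749. Cd81 and Gnas were lost in Smn1OE without its replicate 3 or WT replicate 3 (up to 0.0682 and 0.0654).

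**Figure D5:**
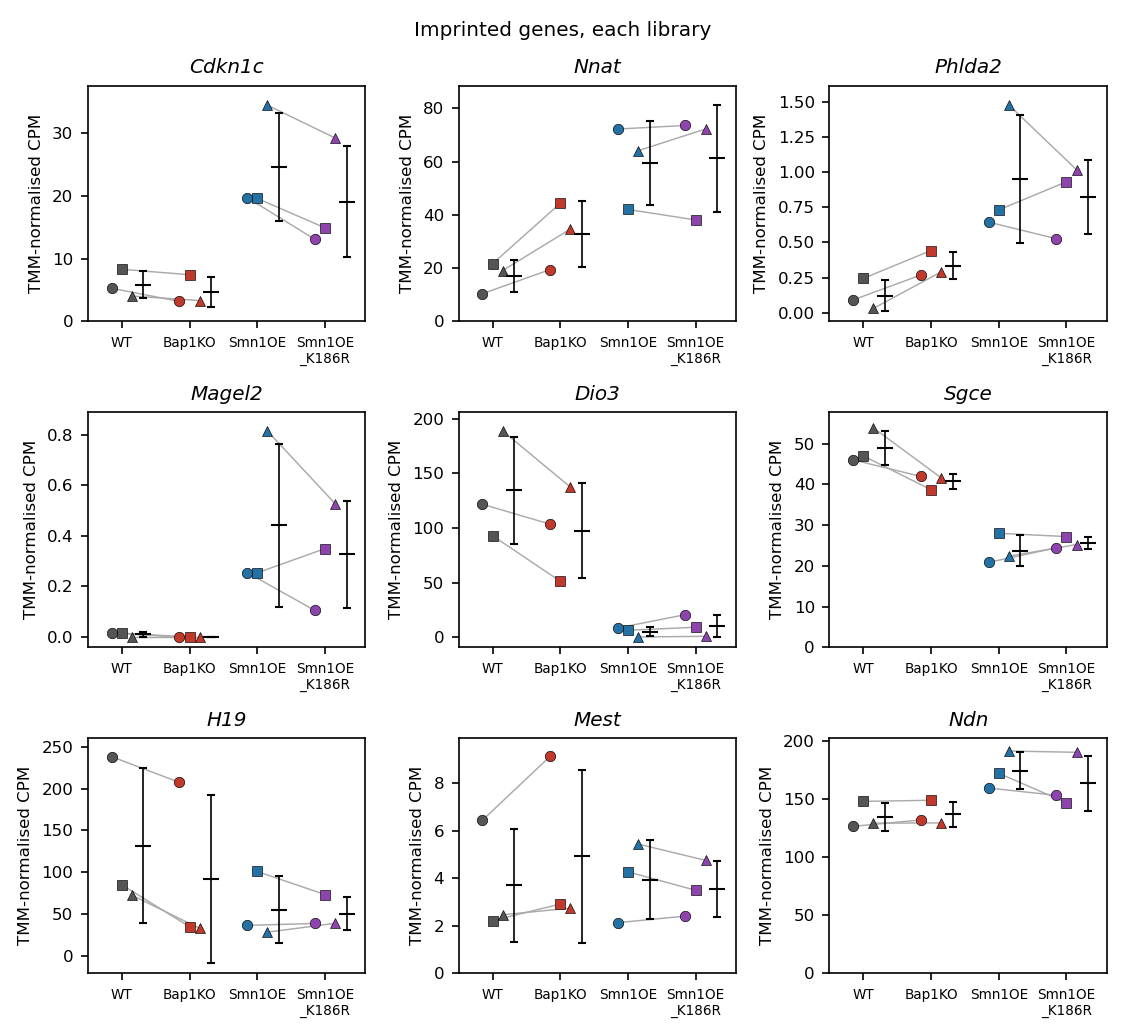
TMM-normalised CPM of 9 imprinted genes in each library, by group, with linear axes. Circles, squares and triangles are replicates 1, 2 and 3, grey lines join libraries of the same media batch, and marks with bars are the mean and SD of 3 libraries. Cdkn1c and Magel2 lie above and Dio3 and Sgce below the other groups in the SMN libraries, and replicate 1 of WT and of Bap1KO gives the highest values of H19 and Mest.

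No imprinted gene was called between the libraries with K186R SMN and those with unmutated SMN. Of the 36, 0 passed at an adjusted p under 0.05 and 0 had an unadjusted p under 0.05 in edgeR, while of all genes 0% passed and 388 had an unadjusted p under 0.05. DESeq2 gave 0 calls as well. Under a block on media batch 0 imprinted genes and 0.221% of all genes passed (0.215% higher and 0.00633% lower), and 5 imprinted genes had an unadjusted p under 0.05. The log2 differences of Smn1OE_K186R from Smn1OE ran from -0.73 (SE 0.57) for Ddc, an amino acid decarboxylase gene, to 1.02 (SE 0.92) for Dio3. The SE of the difference was 0.09 for Igf2r and 0.08 for Trappc9 but 0.92 for Dio3, 0.67 for Magel2 and 0.68 for Zdbf2, so the latter could differ by far more without a call. Impact had the lowest unadjusted p (0.0753), with Smn1OE at 142, 147 and 148 CPM and Smn1OE_K186R at 153, 177 and 160 CPM, which did not overlap. In all 3 batches 5 of the 36 were higher and 4 lower in Smn1OE_K186R, against 17.9% and 16.3% of all genes.

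Another 10 tested genes were not called in any comparison in the fit without the block: H19, Mest, Copg2, Kcnq1ot1, Airn, Grb10, Ddc, Snrpn, Zrsr1 and Peg13. Among them, Ddc was at 0.395, 0.488 and 0.743 CPM in WT and at 0.283, 0.0305 and 0.254 CPM in Bap1KO, without overlap. Its log2 fold change of -1.52 was not called and rests on at most 48 counts per library. Levels of some of the others lay close together in all groups. Peg13 was at 17.7 to 20.7 CPM in WT and at 19.5 to 23.7 CPM in Smn1OE_K186R, and Zrsr1, a splicing factor gene of retrotransposed origin, was at 9.6 to 12.1 CPM in WT and 11.7 to 12.2 CPM in Smn1OE_K186R. H19 and Mest instead varied within groups. Mest, which encodes a membrane protein of the hydrolase family and is widely used as a marker of mesoderm, was at 6.43, 2.21 and 2.46 CPM in WT and at 9.12, 2.91 and 2.74 CPM in Bap1KO. As for H19, both batch A libraries were the highest, and in the SMN groups Mest was lowest in batch D (2.13 and 2.41 CPM). Exons of Copg2 on the other strand overlap 23.1% of the Mest exons. Copg2 lay at 37.8 to 53.5 CPM, so without a stated strand setting the Mest values are uncertain. Within the SMN groups H19 was highest in batch E, with 101 CPM (Smn1OE) and 73.3 CPM (Smn1OE_K186R), against 28.2 to 38.8 CPM in the other libraries. Igf2, which shares its control region with H19, was at no more than 0.276 CPM in any library. Exons of another gene model on the same strand cover 62.8% of the Igf2 exons, so reads there cannot be assigned to 1 gene. Rtl1 was at no more than 0.0947 CPM.

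Genes known to set up or keep imprints were looked at beside these genes, as a list of 30, of which 28 were tested. In Bap1KO against WT 0 of the 28 passed in edgeR and 0 in DESeq2, with 3 and 5 at an unadjusted p under 0.05, beside 9.72% of all genes in edgeR. With the block 11 passed, 5 higher and 6 lower, beside 33.9% of all genes. In Smn1OE against Bap1KO Zfp57, which guards methylation at imprinted control regions, rose from 10.6 ± 1.19 to 17.2 ± 2.88 CPM (0.70, adjusted p = 0.0167). Uhrf1, which brings the maintenance methyltransferase to replicating DNA, fell from 32.4 ± 9.99 to 15.3 ± 6.67 CPM (-1.08, adjusted p = 0.0324), and no other of the list passed. In Smn1OE_K186R Zfp57 rose by 0.57 (adjusted p = 0.0395), with the Polycomb subunit gene Suz12 (0.35, adjusted p = 0.0317) and the chromatin gene Arid4a (0.45, adjusted p = 0.0483). Against WT 10 passed in Smn1OE (4 higher, 6 lower) and 11 in Smn1OE_K186R (8 higher, 3 lower). Among those with the smallest adjusted p in both were Uhrf1 (-1.63 and -1.46), Hat1, a histone acetyltransferase (-0.86 and -0.77), and Arid4a (0.57 and 0.79) and Arid4b (0.58 and 0.89), with adjusted p of 0.00124 to 0.0147. Shares of 7.14% and 10.7% against Bap1KO, and of 35.7% and 39.3% against WT, lay below the shares of all genes in those comparisons. Proliferation genes, with which Uhrf1 is known to be expressed, were lower in the SMN groups as given above, and their part was not tested.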

How the data were processed

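RNA of 12 libraries (4 groups of 3) was sequenced as paired-end TruSeq libraries, per the labels' protocols. The deposited files hold raw read counts per Ensembl gene, made by the authors with no further normalization. Per the submitters' processing notes, the tools were HTSeq 0.9.1, STAR 2.6.1, cutadapt 1.4.2, CASAVA 1.8.2 and DESeq2, and the build was GRCm39. The annotation release and strand setting are not given in the sources used here, so overlapping and antisense genes are uncertain. The 5 closing rows that name no gene (11.1 to 14.6% of the records) were left out. GENCODE M21 gave symbols for 55154 of 55335 IDs and the exon lengths. Replicates of a group differed beyond counting noise (chi-square per degree of freedom 38.1 to 123).

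The imprinted genes and the other lists were chosen with earlier results of these data known. Counts were tested with edgeR 4.0.16 (R 4.3.3): TMM, filterByExpr with a minimum count of 10, a quasi-likelihood fit of the 4 groups with 8 residual degrees of freedom (common biological coefficient of variation 0.179, prior count 0.125), 2-sided, Benjamini-Hochberg adjusted over all 16597 genes at 0.05. The test was also run on simulated counts, with the same spread for every gene and no media batch effect. Changed genes in that run did not have low counts, so it does not cover genes with few reads, such as Magel2. CPM are TMM-normalised. An exact permutation test of 3 against 3 cannot go below 0.1, so none is given.

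Genes named with their value in every library passed in Bap1KO against WT, with or without the block, or passed with an SMN group at a log2 difference of at least 1. Of other imprinted genes up to 6 per comparison are named by size, and of the imprinting machinery up to 6 by adjusted p. Pairing by media batch, per the labels, was checked: deviations from group means correlated at 0.24 to 0.43 within WT and Bap1KO batches and at 0.30 to 0.43 within the SMN batches. The block was fitted on the 2 groups compared. Alternatives were DESeq2 1.42.0, upper-quartile factors, no filter, the 2 groups alone, the block, limma 3.58.1 voom with batch as a random effect (correlation 0.453), and leaving out each library.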

Additional observations from a re-analysis of the deposited data

How the results depend on the processing

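The number of imprinted genes called in Bap1KO against WT (3) rose to 5 with no filter on low counts, to 13 with the media batch as a replicate block and to 12 with batch as a random effect in limma, and ran from 1 to 3 with single libraries left out. In Smn1OE_K186R against Bap1KO the 17 fell to 8 with a block on the replicate number, and ran from 11 to 20 with single libraries left out. In Smn1OE against Bap1KO (21) the block gave 14 and single omissions 13 to 23. In those comparisons a number joins different media batches and pairs nothing by design, and whether the calls it lost are weaker effects was not tested. Some of them, such as Begain, were also lost with single libraries left out, and others, such as Plagl1, were not. Against WT the counts ran from 15 to 21 in Smn1OE and from 15 to 19 in Smn1OE_K186R with single libraries left out, and between the SMN groups they were 0 throughout. DESeq2, upper-quartile factors and the fit of the 2 groups alone moved none of these counts of imprinted genes by 1.5 times. The log2 fold change of H19 in Bap1KO against WT, -0.52, reversed to 0.22 without WT replicate 1, and single omissions ran from -1.96 (without Bap1KO replicate 1) to that value. Over all genes tested, the calls in Bap1KO against WT (1614) came to 2560 in DESeq2, 4635 in limma, 1639 with the 2 groups alone and 5207 with the block on those groups. In Smn1OE against Bap1KO (5567) the 2 groups alone gave 5044 and the block 2802, and in Smn1OE_K186R against Bap1KO (5416) they gave 3462 and 1475. With single libraries left out, calls over all genes ran from 535 to 1457 in Bap1KO against WT. They ran from 3512 to 5627 in Smn1OE and from 3385 to 5309 in Smn1OE_K186R against Bap1KO. Depth limits Usp29, Ppp1r9a, Phlda2, Zdbf2, Ddc and Magel2, where the lowest libraries held 0 to 5 counts.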

Other observations

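A second list, of 33 other genes reported as imprinted in mouse, of which 28 were tested, was read beside the genes of the report. In Bap1KO against WT 4 passed (14.3%, against 9.72% of all genes), 1 higher and 3 lower. Slc38a4, an amino acid transporter known from placenta and liver, fell from 1.14 ± 0.64 to 0.252 ± 0.185 CPM (-2.18, adjusted p = 0.0486, edgeR). Phactr2, a regulator of protein phosphatase and actin, fell from 12.3 ± 1.4 to 5.62 ± 0.935 CPM (-1.13, adjusted p = 0.00398), and Tfpi2, an inhibitor of serine proteases in the matrix, fell from 13.4 ± 2.92 to 7.52 ± 2.12 CPM (-0.84, adjusted p = 0.0251). Osbpl5, a lipid transfer protein of the Kcnq1 domain, rose from 93.1 ± 8.55 to 122 ± 7.99 CPM (0.39, adjusted p = 0.0109). With the media batch as a block 11 passed, 6 higher and 5 lower, beside 33.9% of all genes.

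Against Bap1KO, 8 of the 28 passed in Smn1OE (28.6%, 6 higher and 2 lower) and 12 in Smn1OE_K186R (42.9%, 8 higher and 4 lower), beside 33.5% and 32.6% of all genes. Tfpi2 rose to 22.5 ± 3.21 CPM in Smn1OE (1.58, adjusted p = 0.000397) and to 22.3 ± 2 CPM in Smn1OE_K186R (1.57, adjusted p = 0.000527). Ago2, an effector of small RNAs, rose by 0.47 and 0.56 (adjusted p 0.00253 and 0.00135), and Cobl, an actin nucleator, by 1.05 in each (adjusted p 0.0392 and 0.0406). Slc22a2, a cation transporter at 0.175 ± 0.0164 CPM in Bap1KO, fell by 2.18 and 2.42 (adjusted p 0.036 and 0.0258). Against WT, 17 passed in Smn1OE (60.7%, 8 higher and 9 lower) and 18 in Smn1OE_K186R (64.3%, 9 higher and 9 lower), beside 50.4% and 50.5% of all genes. Dcn, decorin, which is also among the FAP markers, fell from 299 ± 98.7 to 48.4 ± 33.5 CPM in Smn1OE (-2.63, adjusted p = 0.00394) and to 55.5 ± 31.3 CPM in Smn1OE_K186R (-2.43, adjusted p = 0.0059). Snhg14, the noncoding RNA antisense to Ube3a, rose by 0.83 and 1.41 (adjusted p 0.0122 and 0.000559). Between the SMN groups 0 of the 28 passed in edgeR and 0 in DESeq2, with 1 and 3 at an unadjusted p under 0.05.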
